A study of Mus musculus with 8 samples.

Results

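Chemokines are small secreted proteins that steer the movement of immune cells, and their receptors sit on the cells that respond. In the table of 55414 mouse genes, 60 genes carried names of chemokines or their receptors: every gene named Ccl, Cxcl, Xcl, Cx3cl, Ccr, Cxcr or Xcr with a number, plus Ackr1 to Ackr4, the atypical receptors. The receptor gene Cx3cr1 fell outside that naming rule and is given with the other genes of the system. The 60 genes comprised 39 ligands and 21 receptors. Counts per gene came from 8 bulk libraries of colon cells labelled as enteric neurons, which are the nerve cells of the intestinal wall, at 4 weeks of age. There were 4 libraries from Emb knockdown mice and 4 from WT mice, and no other allele or agent is named for either genotype. Emb encodes embigin, an immunoglobulin-type glycoprotein of the cell membrane, and the title of the study concerns the effect of its knockdown on the development of these neurons. Cells were sorted with antibodies to CD24 and CD56, with about 250 cells to a tube, and amplified with a Smart-seq kit, which copies RNA from very small inputs. The labels do not tie each tube to 1 mouse, so a p-value here reflects variation among the libraries, which may in part be technical. Emb was knocked down in a way not given in the sources used here.

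Chemokines bind seven-pass membrane receptors that signal through inhibitory G proteins, and each family is named for the spacing of the cysteines near the start of the protein. CC chemokines mainly draw monocytes, macrophages, lymphocytes and eosinophils, while CXC chemokines draw neutrophils or, in another branch, activated T cells. Atypical receptors bind chemokines without the usual G-protein signal and remove them. In the gut wall, resident macrophages lie close to enteric neurons and carry several of the receptors, and many ligand genes are switched on by inflammatory signals in cells of several types.

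The promoters of 4 CXC ligand genes from a pair of clusters on chromosome 5 are shown, and the values of these genes did not all lie the same way. These 4 are the CXC ligand genes in which the NF-kappaB-like pattern described next was found, so they do not stand for the clusters. Cxcl5, Cxcl9, Cxcl11 and Cxcl15 lie in the same clusters and are not shown. The letters are those of RefSeq (mouse build GRCm38.p6), read 5′ to 3′ on the strand of the gene and ending at the base before the annotated start. Capitals mark matches to GGG, any 3 bases and TTCC, a pattern of the kind bound by NF-kappaB, TGANTCA, a pattern of the kind bound by AP-1, and TTTC, any 2 bases and TTTC, a pattern of interferon-responsive promoters. Both strands were searched.
Cxcl1 (chr5:90891125-90891244, plus strand): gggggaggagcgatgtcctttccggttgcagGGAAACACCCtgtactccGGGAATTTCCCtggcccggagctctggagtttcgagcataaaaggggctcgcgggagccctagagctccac
Cxcl2 (chr5:90903779-90903898, plus strand): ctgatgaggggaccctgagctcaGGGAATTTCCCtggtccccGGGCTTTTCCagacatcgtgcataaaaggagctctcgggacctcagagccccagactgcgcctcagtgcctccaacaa
Cxcl3 (chr5:90785981-90786100, plus strand): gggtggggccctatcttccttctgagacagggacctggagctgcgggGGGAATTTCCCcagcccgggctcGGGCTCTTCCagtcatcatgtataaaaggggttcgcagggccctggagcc
Cxcl10 (chr5:92348890-92349139, minus strand): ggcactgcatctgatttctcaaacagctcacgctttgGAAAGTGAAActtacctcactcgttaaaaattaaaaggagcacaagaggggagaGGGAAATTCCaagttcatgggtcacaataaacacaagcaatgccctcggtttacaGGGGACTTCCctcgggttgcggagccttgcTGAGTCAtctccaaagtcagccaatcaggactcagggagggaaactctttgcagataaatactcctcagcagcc
Cxcl1, Cxcl2 and Cxcl3 shared the run GGGAATTTCCC, in which a match on each strand overlaps the other. Cxcl1 and Cxcl2 had higher values in Emb knockdown than in WT, and Cxcl3, with the same run, had a lower mean, as given below. The promoter of Cxcl10 held matches to all 3 patterns. Of the 60 genes, 45 had an entry in the promoter table, with 52 windows of 250 bases before to 50 bases after a start. The NF-kappaB-like pattern occurred in 17.3% of those windows, against 5.56% of all 32851 windows; TGANTCA in 17.3%, against 7.81%; and the interferon-type pattern in 5.77%, against 3.44%. The genes with the NF-kappaB-like pattern were Ccl1, Ccl9, Ccl20, Ccr3, Ccr6, Cxcl1, Cxcl2, Cxcl3 and Cxcl10. A match describes the letters of a window and says nothing of whether a factor was bound there.

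Depth and composition differed between the genotypes. Total counts ranged from 2024372 to 2712754 in Emb knockdown and from 698930 to 954191 in WT. The ribosomal RNA gene Rn18s-rs5 took 29.2% to 42.5% of counts in Emb knockdown and 3.55% to 13% in WT. Values below are CPM, the counts of a gene scaled to library size with TMM factors, except where counts are named. A gene at 3 counts stood at 1.59 to 2.00 CPM in Emb knockdown and at 2.28 to 4.22 CPM in WT, so low genes were measured less finely in WT. Such limits cover counting error only, because reads from amplified libraries with no molecular identifiers may copy the same molecule. In bulk samples, fewer cells of a type and less RNA per cell cannot be told apart. Emb had 5, 25, 3 and 5 counts in Emb knockdown replicates 1 to 4 and 4, 6, 22 and 16 in WT replicates 1 to 4. At 13.3 CPM, Emb knockdown replicate 2 lay inside the WT range of 5.15 to 22.5 CPM. The Emb log2 fold change was -1.24 ± 0.82 (SE; edgeR adjusted p = 0.529; exact permutation p = 0.171, n = 4 each), and without Emb knockdown replicate 2 it was -2.23. No lowering of Emb was detectable at this depth.

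The neuron label was checked against 14 enteric neuron markers. Their summed level was 252 to 533 CPM in Emb knockdown and 275 to 450 CPM in WT, and the groups overlapped. Of the 14, 8 were tested and none was at 0 in every library. At an unadjusted p under 0.05, 1 of the 8 was higher and 0 were lower, beside 8.64% and 4.64% of all genes tested, and 4 log2 fold changes lay above 0 and 4 below. The marker with that p was Uchl1, a ubiquitin hydrolase of neurons, with 326, 56.2, 86.5 and 0 CPM in Emb knockdown, against 7.72, 29.9, 6.09 and 2.81 CPM in WT (log2 fold change 3.32 ± 1.40, edgeR adjusted p = 0.342). Elavl3, an RNA-binding protein of neurons, had 75.1 to 117 CPM in Emb knockdown and 151 to 269.8 CPM in WT, without overlap (log2 fold change -0.97 ± 0.61, edgeR adjusted p = 0.513). The macrophage and monocyte markers, 14 genes of which 9 were tested, summed to 3906 to 7116 CPM in Emb knockdown and 739 to 2577 CPM in WT. These sums did not overlap in CPM, and with library totals alone they overlapped narrowly. At an unadjusted p under 0.05, 6 of the 9 were higher and 1 was lower, and no marker was at 0 in every library. None passed the adjusted p. C1qa, a complement subunit that macrophages make, had 2812 to 5233 CPM in Emb knockdown and 510.4 to 2327 CPM in WT (edgeR adjusted p = 0.356). C1qa made up most of each sum. The lower marker of the list was Mertk, with 4.00 to 8.65 CPM in Emb knockdown and 4.22 to 25.9 CPM in WT (edgeR adjusted p = 0.365). Cx3cr1, a receptor of resident macrophages outside this list, also had lower values in Emb knockdown, as given below. So did Itgam, a myeloid integrin gene also outside the list, with 138 to 632 CPM in Emb knockdown and 1405 to 5765 CPM in WT. The Itgam groups did not overlap (log2 fold change -3.27 ± 0.75, edgeR adjusted p = 0.275). Genes of these cells thus lay on either side, and the sums cover the listed genes alone. Of 7 enteric glia markers, 6 were tested, and 2 were higher and 0 lower at an unadjusted p under 0.05.

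No chemokine or receptor gene passed the adjusted p in either direction. Of the 60 genes, 24 passed the filter on low counts, 16 ligands and 8 receptors, and a gene counted in a single genotype could pass through that genotype alone. With edgeR's quasi-likelihood test, 0 of the 24 had an adjusted p under 0.05, beside 0% of the 11353 genes tested, and their adjusted p ran from 0.294 to 0.939. Unadjusted p lay under 0.05 for 3 genes higher in Emb knockdown (Ccl12, Cxcl1 and Ccl2) and for 2 lower ones (Cxcr4 and Ccl1). Of all genes tested, 8.64% were higher and 4.64% lower at that level, 13.3% in all, against 5 of the 24 here. Groups did not overlap for 2 genes that were higher (Ccl12 and Cxcl1) and 2 that were lower, among them Cxcr4. Over all genes tested these shares were 4.03% and 4.25%, or 8.28% in either direction. Log2 fold changes were above 0 for 13 of the 24 genes and below 0 for 11, and 51.6% of all genes tested lay above 0. The median log2 fold change was 0.29 for the 24 genes and 0.04 for all genes, 0.29 for the 16 ligands and -0.20 for the 8 receptors.

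The direction of these counts followed the scaling of the libraries. The share of all genes at an unadjusted p under 0.05 is not given for the scalings below, so their counts stand without it. With library totals alone, the median of all genes lay at -0.67 and that of the 24 genes at -0.42, and 1 gene was higher and 8 lower at an unadjusted p under 0.05. With scaling to the summed counts of olfactory, vomeronasal and trace amine receptor genes, 1487 genes not known to be broadly used in colon, the median of all genes was 0.64 and that of the 24 genes 0.87, and 8 genes were higher and 1 lower. Cxcl1 was the gene whose groups did not overlap under each of TMM, DESeq2 size factors, library totals and receptor-gene scaling. Ccl12 overlapped with library totals alone, and Cxcr4 overlapped with receptor-gene scaling. DESeq2 gave an adjusted p to 13 of the 24 genes and called Ccl12 (log2 fold change 4.43, adjusted p = 0.00150), Cxcl1 (1.74, 0.00324) and Ccl2 (3.35, 0.0437), where 8.91% of the 5904 genes with an adjusted p were called higher and 3.78% lower. limma voom called none. Of the edgeR, voom and DESeq2 tests on the same filtered counts, only DESeq2 called these 3 genes. The 13 chemokine and receptor genes given below with a log2 fold change and SE kept their direction under each of the 4 other scalings.

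**Figure D1:**
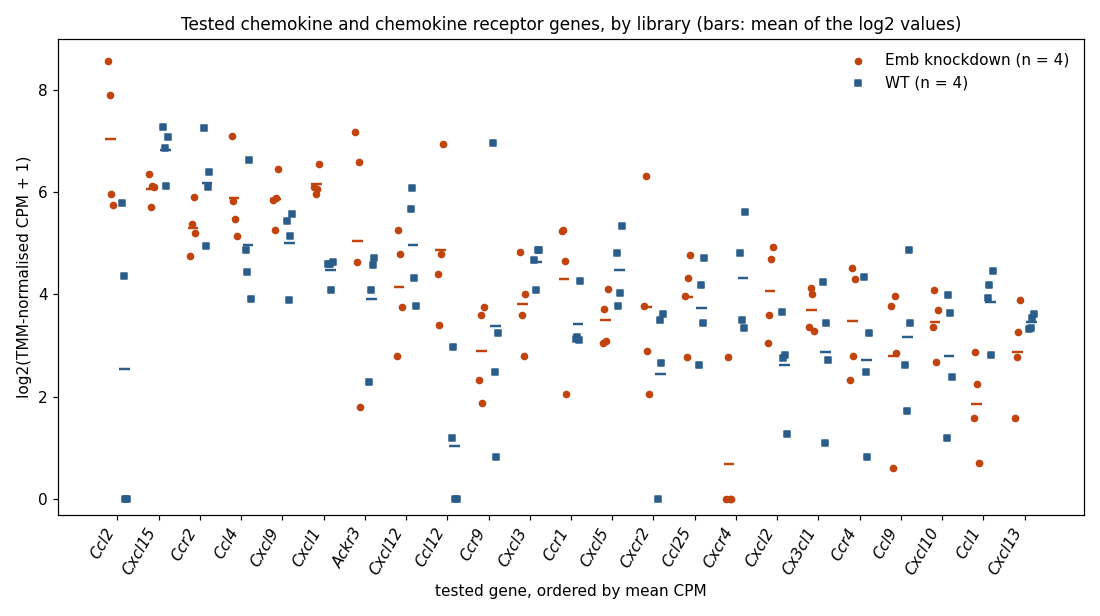
Levels of 23 tested chemokine and receptor genes in each library, as log2(TMM-normalised CPM + 1) on the y axis, with genes ordered by mean CPM on the x axis. Orange circles are Emb knockdown and blue squares WT libraries, n = 4 each, and bars are means of the log2 values. The groups of Cxcl1 lie apart, at 61.0 to 92.1 CPM in Emb knockdown and 15.98 to 23.9 CPM in WT.

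Among CC ligands, 3 monocyte attractants of 1 cluster on chromosome 11 had higher mean values in Emb knockdown, and neither of the 2 that were tested passed the adjusted p. Ccl2, Ccl7 and Ccl12 encode ligands of Ccr2, the receptor by which monocytes leave the blood, and Ccl12 is known as such a ligand in the mouse. Ccl12 had 19.99, 9.54, 26.5 and 121 CPM in Emb knockdown replicates 1 to 4, against 1.29, 6.90, 0 and 0 CPM in WT replicates 1 to 4. All 4 Emb knockdown libraries lay above all 4 WT libraries, with replicate 4 far above the other 3. For Ccl12 the log2 fold change was 4.40 ± 1.23 (SE; edgeR adjusted p = 0.294, n = 4 each), and it was 3.16 when Emb knockdown replicate 4 was left out and 6.58 when WT replicate 2 was.

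Ccl2 had 377, 238, 61.6 and 52.6 CPM in Emb knockdown, against 54.0, 19.5, 0 and 0 CPM in WT. The groups overlapped by 1 library each: Emb knockdown replicate 4 lay just below WT replicate 1. The log2 fold change of Ccl2 was 3.31 ± 1.43 (edgeR adjusted p = 0.355), 2.69 with Emb knockdown replicate 1 left out and 4.80 with WT replicate 1 left out. Ccl7 did not pass the filter: it had 2, 9, 582 and 9 counts in Emb knockdown and 3, 2, 1 and 0 counts in WT, so nearly all of its counts came from Emb knockdown replicate 3. Each of the 3 ligands was thus highest in a different Emb knockdown library, Ccl2 in replicate 1, Ccl7 in replicate 3 and Ccl12 in replicate 4.

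The other genes of that cluster did not share those values. Ccl1, whose receptor is Ccr8, had 2.00, 6.36, 3.78 and 0.627 CPM in Emb knockdown, against 14.2, 17.2, 6.09 and 21.1 CPM in WT. The groups overlapped narrowly, since Emb knockdown replicate 2 lay just above WT replicate 3. The Ccl1 log2 fold change was -2.13 ± 0.78 (edgeR adjusted p = 0.312). The annotated span of Ccl1 is long for a chemokine gene, from 82176657 to 82305690 on chromosome 11 with 12 exons, and whether its counts hold reads of other transcripts was not tested. Ccl11, an eosinophil attractant, had at most 6 counts in Emb knockdown and 10, in replicate 1, in WT. Ccl8 had at most 4 counts in Emb knockdown and 8 in WT. Summed over the 6 genes from 82035571 to 82305690, the cluster held 184 to 408 CPM in Emb knockdown and 14.5 to 86.2 CPM in WT. These sums stayed apart with library totals alone and with receptor-gene scaling.

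A second chromosome 11 cluster, from 83525778 to 83664683, holds inflammatory ligands. Ccl4, which draws macrophages and T cells, had 135, 55.7, 43.2 and 34.5 CPM in Emb knockdown, against 28.3, 20.7, 98.1 and 14.1 CPM in WT. WT replicate 3 stood apart from the other WT libraries and put the groups into overlap. Ccl3, which binds Ccr1, had 141, 4, 5 and 2 counts in Emb knockdown and 4, 0, 0 and 1 counts in WT. Ccl6, a Ccr1 ligand in the mouse, had 236, 0, 93 and 9 counts in Emb knockdown and 0, 10, 1 and 3 counts in WT. Ccl3 thus came mainly from a single library and Ccl6 mainly from a pair of them. Ccl9, also a mouse Ccr1 ligand, had 0.530 to 14.6 CPM in Emb knockdown and 2.30 to 28.1 CPM in WT. Ccl5, which draws T cells and macrophages, had no count in Emb knockdown and 1 count in WT.

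The remaining CC ligands had few counts. Ccl25, the ligand of the gut-homing receptor Ccr9, had 5.83 to 26.3 CPM in Emb knockdown and 5.15 to 25.3 CPM in WT, and its exons overlap those of Elavl1. Ccl28, a mucosal ligand of Ccr10, had 1, 33, 3 and 9 counts in Emb knockdown and 28, 0, 14 and 4 in WT. Ccl26 and Ccl24, ligands of the eosinophil receptor Ccr3, had at most 1 and 4 counts in Emb knockdown and at most 23 and 10 in WT. Ccl21a, a Ccr7 ligand, had at most 7 counts in Emb knockdown and 17 in WT, and Ccl27a, a Ccr10 ligand, had at most 7 counts in Emb knockdown and 13 in WT. Ccl17 and Ccl22, which bind Ccr4, had at most 8 and 2 counts in Emb knockdown and 9 and 7 in WT. Ccl19 and Ccl20 had at most 6 and 5 counts in Emb knockdown and at most 2 and 0 in WT. Ccl21b, Ccl21d and Ccl27b, near-identical copies of neighbouring genes, had no count in any library, and reads of such copies may be lost or split in counting. All 24 CC ligands together held 271 to 823 CPM in Emb knockdown and 91.4 to 214 CPM in WT. As a share of all counts these sums overlapped, at 0.0198% to 0.0507% in Emb knockdown and 0.00930% to 0.0294% in WT. Per count of the receptor-gene background they lay apart, at 0.0471 to 0.178 in Emb knockdown and 0.0111 to 0.0257 in WT.

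**Figure D2:**
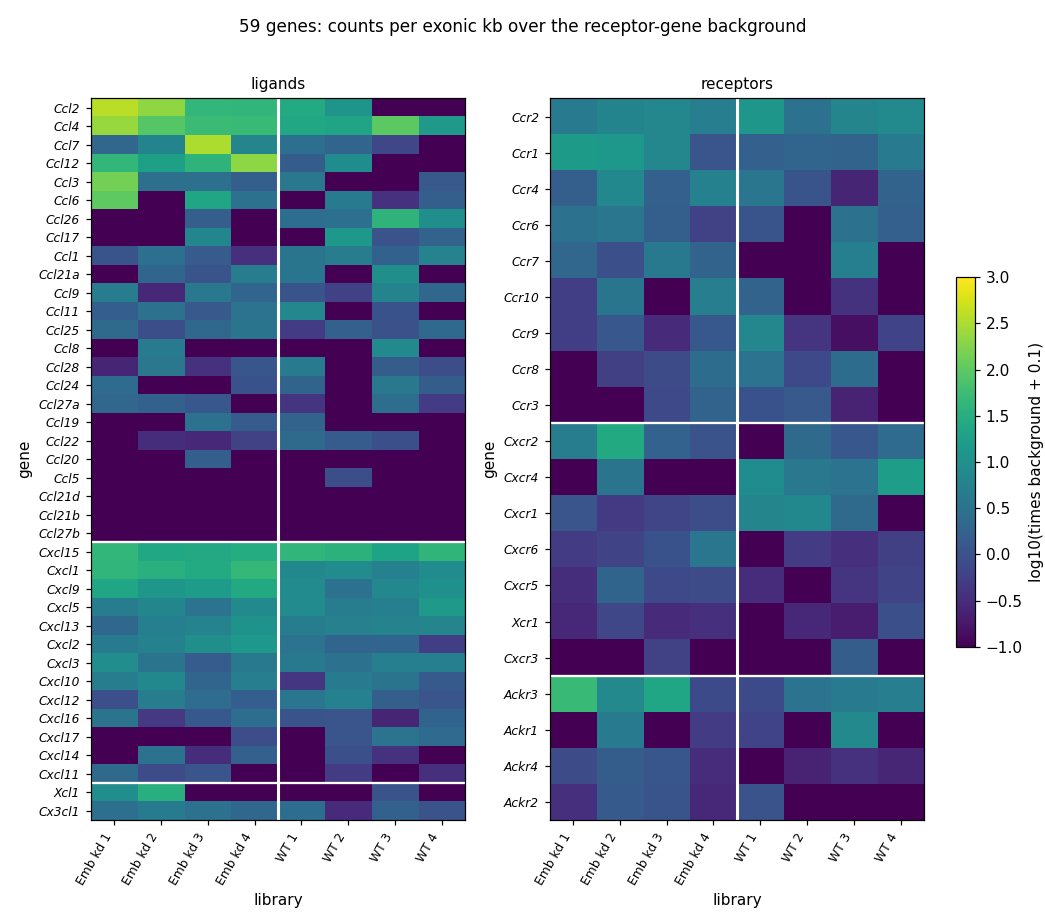
Counts per exonic kilobase of 59 genes in each library, divided by those of the receptor-gene background and shown as log10(ratio + 0.1) by colour, with ligands on the left and receptors on the right. Rows are genes by family, and columns are Emb knockdown replicates 1 to 4 and then WT replicates 1 to 4. Ccl4 and Cxcl15 lie at 10 or more times the background in all 8 libraries.

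The CXC ligands that draw neutrophils through Cxcr2 lie in a cluster on chromosome 5, from 90759360 to 90905938. Cxcl1 had 67.3, 61.0, 65.4 and 92.1 CPM in Emb knockdown, against 23.2, 23.0, 15.98 and 23.9 CPM in WT. The groups did not overlap, and the lowest Emb knockdown library was far above the highest WT library. Cxcl1 had a log2 fold change of 1.73 ± 0.54 (edgeR adjusted p = 0.295), with 1.58 to 1.79 when any 1 library was left out. Of the 24 tested genes, Cxcl1 had the smallest SE. Its summed counts were 484 in Emb knockdown and 76 in WT, from libraries of unlike depth. In CPM its mean was 71.4 in Emb knockdown and 21.5 in WT.

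Cxcl2 had 7.33, 11.1, 24.9 and 29.4 CPM in Emb knockdown, against 11.6, 5.75, 6.09 and 1.41 CPM in WT. Emb knockdown replicates 3 and 4 lay above all WT libraries and replicates 1 and 2 did not. Its log2 fold change was 1.53 ± 0.75 (edgeR adjusted p = 0.399). Cxcl3 had 5.94 to 27.3 CPM in Emb knockdown and 16.1 to 28.1 CPM in WT, with overlap. Cxcl5 had 7.33, 12.2, 7.57 and 16.3 CPM in Emb knockdown, against 27.0, 12.6, 15.2 and 39.4 CPM in WT. Emb knockdown replicate 4 was the library that reached into the WT range, and the log2 fold change was -1.10 ± 0.62 (edgeR adjusted p = 0.458). Neighbouring genes for ligands of the same receptor thus had values on either side.

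Cxcl15, known in the mouse as a neutrophil attractant of lung epithelium, had nearly the same counts in all libraries. It had 121, 97, 127 and 107 counts in Emb knockdown and 119, 100, 90 and 95 in WT, although the Emb knockdown libraries held more counts in all. In CPM it stood at 80.6, 51.4, 68.6 and 67.0 in Emb knockdown, against 153, 115, 68.5 and 134 in WT. The log2 fold change was -0.81 ± 0.59 (edgeR adjusted p = 0.570), and -0.17 with scaling to the receptor genes, whose counts were also more alike between the genotypes than the totals, at 6920 to 12392 in Emb knockdown and 5841 to 10948 in WT. The cluster of 5 genes summed to 147 to 220 CPM in Emb knockdown and 134 to 239 CPM in WT. With library totals alone its sums lay apart, lower in Emb knockdown, at 102 to 160.2 counts per 1000000 in Emb knockdown and 177 to 253 in WT. With receptor-gene scaling they overlapped.

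Cxcl9, Cxcl10 and Cxcl11 draw activated T cells through Cxcr3 and are induced by interferon gamma. Cxcl9 had 56.6, 37.1, 58.4 and 86.5 CPM in Emb knockdown, against 42.5, 13.8, 34.2 and 46.4 CPM in WT. Emb knockdown replicate 2 lay within the WT range and the other 3 above it. Cxcl10 had 5.40 to 15.9 CPM in Emb knockdown and 1.29 to 14.9 CPM in WT, and its exons overlap those of Art3. Cxcl11 had 11, 5, 9 and 0 counts in Emb knockdown and 0, 2, 0 and 1 in WT. The sum of the 3 genes, from 92321347 to 92365485, was 55.7 to 98.4 CPM in Emb knockdown and 31.0 to 52.0 CPM in WT, and with library totals alone these sums overlapped, while with receptor-gene scaling they lay apart.

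Cxcl12, the main ligand of Cxcr4, had 6.00, 37.1, 26.5 and 12.5 CPM in Emb knockdown, against 50.2, 66.7, 19.0 and 12.6 CPM in WT, with overlap. Cxcl13, which guides B cells through Cxcr5, had 2.00 to 13.8 CPM in Emb knockdown and 9.01 to 11.2 CPM in WT. Cxcl16, the membrane-bound ligand of Cxcr6, had 2 to 14 counts in Emb knockdown and 1 to 6 in WT. Cxcl14 had at most 10 counts in Emb knockdown and 2 in WT, and Cxcl17, known from mucosal tissues, had at most 1 in Emb knockdown and 5 in WT. The 13 CXC ligands together held 292 ± 45.2 CPM in Emb knockdown and 291 ± 56.4 CPM in WT (SD, n = 4 each). Their share of all counts was 0.0157% to 0.0260% in Emb knockdown and 0.0295% to 0.0368% in WT, so on that scale the groups lay apart with Emb knockdown below. Per count of the receptor-gene background the same ligands lay apart the other way, at 0.0420 to 0.0620 in Emb knockdown and 0.0258 to 0.0382 in WT.

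Cx3cl1, a membrane-bound ligand that neurons make in the brain, had 8.77 to 16.4 CPM in Emb knockdown and 1.15 to 18.01 CPM in WT. Xcl1, made by T and natural killer cells, had 6, 30, 0 and 0 counts in Emb knockdown and 0, 0, 1 and 0 in WT. Both genes were low, and Xcl1 was counted in 3 of 8 libraries. All 39 ligands together held 1116, 636, 851 and 637 CPM in Emb knockdown, against 555, 403, 439 and 410.4 CPM in WT, without overlap. With each sum divided by all counts the groups overlapped, at 0.0442% to 0.0778% in Emb knockdown and 0.0414% to 0.0605% in WT. Per count of the receptor-gene background they did not overlap, at 0.111 to 0.242 in Emb knockdown and 0.04999 to 0.0601 in WT.

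**Figure D3:**
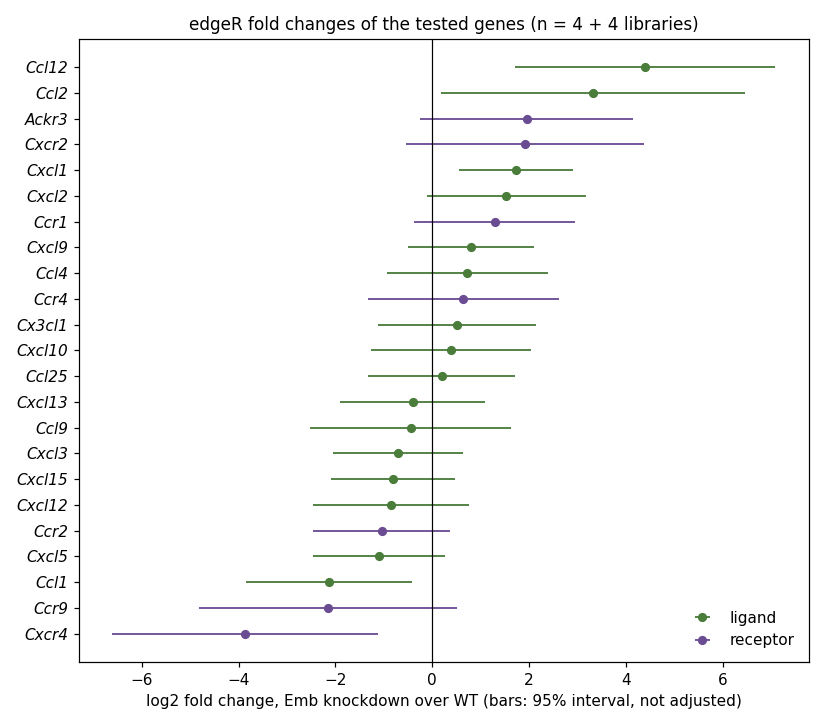
Log2 fold changes of Emb knockdown over WT for 23 tested genes, from edgeR with 4 libraries in each group; points are estimates and lines are 95% intervals that are not adjusted for the number of genes. Green marks ligands and purple receptors. The intervals of Ccl12, Cxcl1 and Ccl2 lie above 0 and those of Cxcr4 and Ccl1 below 0, and no adjusted p is under 0.05.

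The CC receptors given here were uneven between libraries of 1 genotype. Ccr2, the receptor of Ccl2, Ccl7 and Ccl12, had 26.0, 40.3, 58.9 and 35.7 CPM in Emb knockdown, against 152, 29.9, 67.7 and 82.9 CPM in WT. The groups overlapped through WT replicate 2, and the log2 fold change was -1.04 ± 0.65 (edgeR adjusted p = 0.504). Ccr1, a receptor of Ccl3, Ccl6 and Ccl9, had 36.6, 37.1, 24.3 and 3.13 CPM in Emb knockdown, against 7.72, 8.05, 7.61 and 18.3 CPM in WT. Emb knockdown replicates 1 to 3 lay above all WT libraries and replicate 4 below them, with a log2 fold change of 1.29 ± 0.76 (edgeR adjusted p = 0.484). Ccr9, the receptor that brings lymphocytes to the gut, had 4.00, 11.1, 2.70 and 12.5 CPM in Emb knockdown, against 124, 4.60, 0.761 and 8.43 CPM in WT. WT replicate 1 alone was high, and the log2 fold change of -2.15 ± 1.22 (edgeR adjusted p = 0.462) became 0.78 without it. The exons of Ccr9 overlap several other annotated genes.

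Ccr4, a receptor of T helper cells, had 4.00 to 21.7 CPM in Emb knockdown and 0.761 to 19.3 CPM in WT. Of the CC receptors that did not pass the filter, Ccr7 had 5, 3, 18 and 6 counts in Emb knockdown and 0, 0, 21 and 0 in WT. Ccr6 had 2 to 15 counts in Emb knockdown and 0 to 14 in WT, Ccr10 had 0 to 15 in Emb knockdown and 0 to 4 in WT, and Ccr3 had 0 to 10 in Emb knockdown and 0 to 5 in WT. Ccr8, the receptor of Ccl1, had at most 5 counts in Emb knockdown and 6 in WT. None of these 5 receptors was set apart by genotype in its counts.

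Cxcr4, the receptor of Cxcl12 and a gene with known roles in migrating neural and blood cells, had 0, 5.83, 0 and 0 CPM in Emb knockdown, against 27.0, 10.3, 9.13 and 47.8 CPM in WT. As counts this was 0, 11, 0 and 0 in Emb knockdown and 21, 9, 12 and 34 in WT. Cxcr4 was counted in 1 Emb knockdown library and in all 4 WT libraries, although the Emb knockdown libraries were deeper. A count of 0 allows up to 3 counts, which is at most 2.00 CPM there. The log2 fold change of Cxcr4 was -3.86 ± 1.25 (edgeR adjusted p = 0.304). Without Emb knockdown replicate 2 all Emb knockdown libraries were at 0, so no fold is given for that set.

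The other receptor of Cxcl12 had other values. Ackr3, an atypical receptor that takes up Cxcl12, had 143, 23.9, 95.6 and 2.51 CPM in Emb knockdown, against 3.86, 16.1, 22.8 and 25.3 CPM in WT. Emb knockdown replicates 1 and 3 lay above all WT libraries and replicate 4 below them. For Ackr3 the log2 fold change was 1.95 ± 1.01 (edgeR adjusted p = 0.422), and 1.204 without Emb knockdown replicate 1. For Cxcl12 the mean was 20.5 CPM in Emb knockdown and 37.1 CPM in WT, so the ligand and its receptors did not lie on 1 side.

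Cxcr2, the neutrophil receptor of Cxcl1, Cxcl2, Cxcl3 and Cxcl5, had 12.7, 79.0, 6.48 and 3.13 CPM in Emb knockdown, against 0, 10.3, 5.33 and 11.2 CPM in WT. Emb knockdown replicate 2 alone was high, and the log2 fold change of 1.91 ± 1.12 (edgeR adjusted p = 0.480) was 0.13 without it. Cxcr1, a related neutrophil receptor, had 2, 1, 2 and 2 counts in Emb knockdown and 13, 14, 7 and 0 in WT. Of the lymphocyte receptors, Cxcr5 had 1 to 11 counts in Emb knockdown and 0 to 2 in WT, and Cxcr6 had 1 to 12 in Emb knockdown and 0 to 1 in WT. Cxcr3 had at most 2 counts in Emb knockdown and 5 in WT. Xcr1, a receptor of dendritic cells, had 1 to 5 counts in Emb knockdown and 0 to 4 in WT.

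The remaining atypical receptors were counted in few reads. Ackr1, which binds many CC and CXC ligands on red cells and venules, had 0, 11, 0 and 1 counts in Emb knockdown and 1, 0, 21 and 0 in WT. Ackr2, which clears inflammatory CC ligands, had 1 to 7 counts in Emb knockdown and 0 to 4 in WT. Ackr4, which clears Ccl19, Ccl21 and Ccl25, had 5, 14, 13 and 2 counts in Emb knockdown and 0, 1, 3 and 1 in WT. The exons of Ackr1 overlap those of Cadm3, and those of Ackr4 overlap those of Acad11.

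Set against the receptor-gene background in the same library, few of the 60 genes lay far above it. Ccl4 and Cxcl15 lay at 10 or more times the background in every library. In every Emb knockdown library Cxcl1, Cxcl9, Ccl12 and Ccl2 did so too. Ccl2 lay at 43.5 to 390 times in Emb knockdown and 0 to 27.9 times in WT. In at least 1 library, 16 genes reached 10 times the background in Emb knockdown and 10 genes in WT. The median protein-coding gene lay at 1.51 to 1.90 times in Emb knockdown and 0.779 to 1.25 times in WT, so its own level against that background also differed between the groups. Ccl5, Xcr1, Ccl21b, Ccl21d and Ccl27b lay below the background in all 8 libraries.

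**Figure D4:**
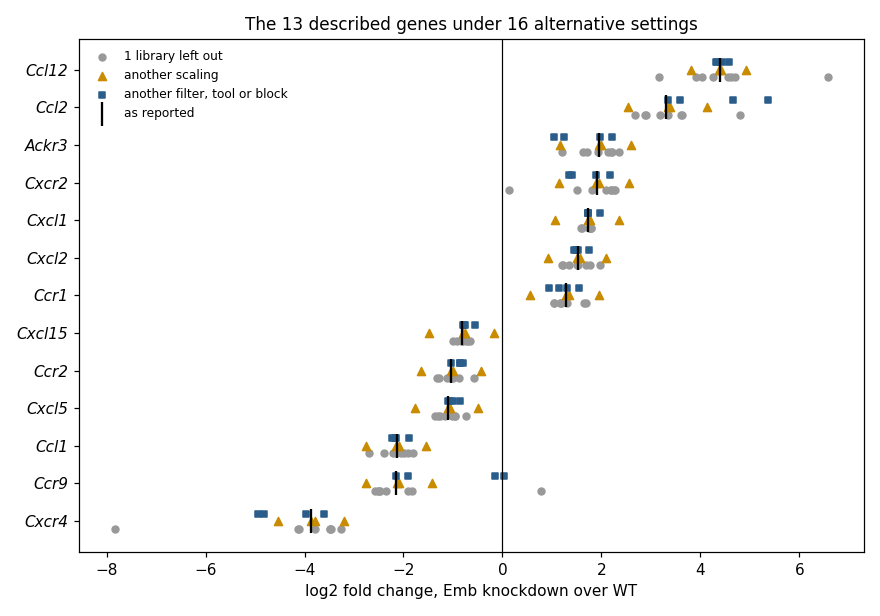
Log2 fold changes of Emb knockdown over WT for 13 genes under 16 alternative settings each: grey circles leave out 1 library, yellow triangles change the scaling, blue squares change the filter, the tool or the replicate block, and black bars are the reported values. Cxcl1 keeps within 1.06 to 2.35, Ccr9 crosses 0, and Cxcr2 falls to 0.13 without 1 library.

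Of the 36 genes that did not pass the filter, 22 had 10 or more counts in some library, 11 had at most 9 and 3 had none. When the filter was removed, edgeR called 6 of 57 chemokine and receptor genes, beside 1.88% of 48530 genes. The filter had passed 24 of those 57 genes but only 11353 of the 48530. The shares of all genes here thus come from a set with more low genes and do not measure an excess. Higher in Emb knockdown were Ccl7 (log2 fold change 5.74, edgeR adjusted p = 5.49e-05), Ccl12 (4.58, 0.00131), Ccl6 (3.95, 0.00490), Ccl3 (4.25, 0.00908) and Ccl2 (3.59, 0.0126), beside 1.49% of all genes. Lower was Cxcr4 (-3.61, 0.0427), beside 0.381% of all genes. Ccl7 and Ccl3 had 582 of 602 and 141 of 152 Emb knockdown counts in a single library, as given above.

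Genes that act with chemokines and their receptors were read from lists. Of 53 genes of signalling below the receptors, 49 were tested, none passed the adjusted p, 5 were higher and 4 lower at an unadjusted p under 0.05, and the median log2 fold change was 0.42. Over all genes tested 8.64% were higher and 4.64% lower at that level, and these shares also stand beside the list counts that follow. Rgs2, which shortens G-protein signals, had 178, 11.1, 129 and 50.1 CPM in Emb knockdown, against 10.3, 6.90, 5.33 and 7.03 CPM in WT (log2 fold change 3.63 ± 0.86, edgeR adjusted p = 0.275). Jak3, a kinase of lymphocyte cytokine receptors, had 9.33 to 29.7 CPM in Emb knockdown and 40.2 to 152 CPM in WT (log2 fold change -1.86 ± 0.67, edgeR adjusted p = 0.311). Those groups did not overlap for either gene. Ptk2, the focal adhesion kinase, was highest at 216 CPM in WT replicate 1.

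Of 27 genes whose products induce chemokines, 19 were tested, 6 were higher and 0 lower at an unadjusted p under 0.05, none passed the adjusted p, and the median log2 fold change was 0.75. Nfkbia, the inhibitor that NF-kappaB itself induces, had 2811, 753, 192 and 58.3 CPM in Emb knockdown, against 61.8, 28.7, 51.0 and 33.7 CPM in WT. Tnf, an inflammatory cytokine, had 79.3, 28.1, 190.2 and 27.6 CPM in Emb knockdown, against 1.29, 0, 12.2 and 15.5 CPM in WT. The Tnf groups did not overlap, and those of Nfkbia overlapped through Emb knockdown replicate 4. The log2 fold changes were 4.44 ± 1.16 for Nfkbia (edgeR adjusted p = 0.294) and 3.47 ± 1.11 for Tnf (edgeR adjusted p = 0.304). Myd88, an adaptor of Toll-like receptors, had a log2 fold change of 4.17 ± 1.19. Immediate early genes, which cells switch on quickly after a stimulus, summed to 8451 to 31381 CPM in Emb knockdown and 1315 to 6461 CPM in WT. These sums did not overlap in CPM, and with library totals alone they overlapped. Of 11 tested immediate early genes, 8 were higher at an unadjusted p under 0.05 and 0 lower. Their part in the values of the ligand genes was not tested.

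Of 9 genes of the system that carry other names, 6 were tested, 2 were higher and 0 lower at an unadjusted p under 0.05, and the median log2 fold change was 0.42. Cd74, the invariant chain and a receptor for Mif, had 606, 318, 225 and 108 CPM in Emb knockdown, against 27.0, 47.1, 74.6 and 32.3 CPM in WT. Mif, an inflammatory cytokine that also binds Cxcr2 and Cxcr4, had 177, 174, 160.5 and 285 CPM in Emb knockdown, against 104, 16.1, 3.80 and 64.6 CPM in WT. Neither pair of groups overlapped, with log2 fold changes of 2.79 ± 0.79 (edgeR adjusted p = 0.295) and 2.08 ± 0.92 (edgeR adjusted p = 0.364). Cx3cr1, the receptor of Cx3cl1 on resident macrophages and microglia, had 318, 682, 7.02 and 99.0 CPM in Emb knockdown, against 1539, 894, 895 and 1278 CPM in WT. Its groups did not overlap, with lower values in Emb knockdown, and its log2 fold change was -2.06 ± 1.04 (edgeR adjusted p = 0.414). Dpp4, a peptidase that trims chemokines, had 10.1 to 19.5 CPM in Emb knockdown and 1.52 to 15.4 CPM in WT.

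Markers of other cells that make or answer chemokines stood beside these values. Neutrophil markers, 9 genes of which 2 were tested, summed to 65.8 to 210.2 CPM in Emb knockdown and 19.3 to 72.4 CPM in WT. Markers of T cells and innate lymphoid cells summed to 103 to 125 CPM in Emb knockdown and 77.3 to 148 CPM in WT. Fibroblast markers summed to 266 to 500 CPM in Emb knockdown and 79.8 to 224 CPM in WT. Endothelial markers summed to 210 to 1471 CPM in Emb knockdown and 381 to 2098 CPM in WT. B and plasma cell markers summed to 35.1 to 656 CPM in Emb knockdown and 21.9 to 56.3 CPM in WT. Mast cell markers summed to 15.04 to 27.0 CPM in Emb knockdown and 5.75 to 56.2 CPM in WT. Sums of smooth muscle markers were 39.4 to 67.3 CPM in Emb knockdown and 57.6 to 92.0 CPM in WT, and those of epithelial markers 119 to 237 CPM in Emb knockdown and 182 to 223 CPM in WT. Of the marker genes, the mast cell receptor gene Fcer1a was at 0 in every library. Of these sums in CPM, those of fibroblast and of macrophage and monocyte markers did not overlap between the genotypes and the others did. With library totals alone, the fibroblast sums and the macrophage and monocyte sums overlapped too. The part of these sums in the ligand values was not tested.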

How the data were processed

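Bulk RNA was measured in 8 libraries of sorted colon cells, 4 from Emb knockdown and 4 from WT mice, grouped by their labels. The authors deposited whole-number counts per gene, not normalized; per the submitters' processing notes, cutadapt and the build mm10 were used. Aligner, counting tool, strand setting and annotation stand as not given in the sources used here, so reads of overlapping or near-identical genes may be split. Coordinates and exon lengths came from GENCODE M21 (GRCm38), and promoter letters from RefSeq (GRCm38.p6).

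The 11353 genes that passed filterByExpr (minimum count 10, minimum total 15) went into edgeR 4.0.16 (R 4.3.3): TMM scaling, robust quasi-likelihood fits with group as the only term, and Benjamini-Hochberg adjustment with a threshold of 0.05. Emb was also compared by an exact two-sided permutation test over 70 assignments, with a smallest possible p of 0.02857. Fits were tested on simulated data. Alternatives were other scalings, no filter, DESeq2 1.42.0, limma 3.58.1 voom, a replicate block and leaving out each library; those for the Emb level and the median of all genes were chosen after seeing the data. Fold changes are given for the 12 tested genes with the smallest p and the 4 with the highest level, 14 in all, and up to 4 genes of each other list are named by smallest p. Genes named outside these rules, such as Elavl3, were chosen after their values were seen. The members and lists were chosen with earlier results of these data known. Some genes are not reported here.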

Additional observations from a re-analysis of the deposited data

Results flagged for a closer look

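Within each group of 4 libraries, a library was noted where its gap to the nearest other library, divided by the range of the group, exceeded Dixon's 95% critical value. Of 94 groups checked over Emb, the tested genes and the untested genes with 10 or more counts in a library, 18 were noted. Chance gives about 1 in 20 for normally distributed values, and a group with 3 libraries at 0 and 1 above it is noted by construction, so the 18 are not read against that rate. WT replicate 3 held 6 of them, Emb knockdown replicate 2 held 4 and WT replicate 1 held 3.

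Among Emb knockdown libraries, replicate 2 stood apart for Emb at 13.3 CPM, Cxcr4 at 5.83 CPM, Cxcr2 at 79.0 CPM and Ackr1 at 5.83 CPM. Replicate 4 was highest for Ccl12 at 121 CPM, replicate 3 for Ccl7 at 314.5 CPM and for Ccl26 at 0.540 CPM, which is 1 count, and replicate 1 for Ccl3 at 93.9 CPM. Ccl12, Ccl7 and Ccl3, each a ligand that draws monocytes or macrophages, were thus led by different libraries.

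Among WT libraries, replicate 3 was highest for Ccl4 at 98.1 CPM, Ackr1 at 15.98 CPM, Ccr7 at 15.98 CPM, Ccl27a at 9.89 CPM and Xcl1 at 0.761 CPM, the last of which is 1 count, and lowest for Cxcl1 at 15.98 CPM. Replicate 1 was highest for Ccr9 at 124 CPM, Ccl11 at 12.9 CPM and Ccr10 at 5.15 CPM, and replicate 4 for Ccr1 at 18.3 CPM.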

How the results depend on the processing

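The calls depended on the tool, the filter and the scaling. Over all genes, edgeR called 0, and 2 with library totals alone, 910 with no filter, 749 with DESeq2 and 0 to 1 when 1 library was left out (1 without WT replicate 1). Of the 24 tested chemokine and receptor genes, 0 passed the adjusted p, against 6 of 57 with no filter and 3 with DESeq2. At an unadjusted p under 0.05 there were 5, against 9 with library totals, 9 with receptor-gene scaling, 14 of 57 with no filter, 8 with DESeq2 and 3 to 8 with 1 library left out (8 without Emb knockdown replicate 4, 3 without WT replicate 4). Shares of all genes at that level are not given for these settings, so the counts are not read as particular to these genes. Groups did not overlap for 4 genes, against 7 with library totals and 4 to 8 with 1 library left out, which leaves fewer libraries to overlap (8 without Emb knockdown replicate 1 or 4, 7 without Emb knockdown replicate 2 or WT replicate 3). The median log2 fold change was 0.29, against -0.42 with library totals and 0.87 with receptor-gene scaling. Of 224 alternative values for the 14 genes chosen for fold changes, 216 kept direction and did not pass the threshold, 6 passed it and 2 reversed. The 216 include DESeq2 values of Cxcr4, Ccl1, Cxcl2, Ccr9 and Cxcr2, to which DESeq2 gave no adjusted p. They also include the Cxcr4 value without Emb knockdown replicate 2, which is not given above. Both reversals were of Ccr9, which was 0.038 with limma voom. Ccr9 ran from -2.57 to 0.78 with 1 library left out, 0.78 being without WT replicate 1. The cause of these shifts was not tested.

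Same-numbered libraries deviated together with r of 0.01 to 0.03, and differently numbered ones with r of -0.04 to 0.02. Not every library correlated best with its own number. Values this near 0 cannot decide whether same-numbered libraries were paired, and the labels do not state it. With the replicate block 0 of all genes and 0 chemokine and receptor genes passed the adjusted p, 6 had an unadjusted p under 0.05, and the median log2 fold change was 0.43. Depth limits the WT libraries most.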
